A study of Saccharomyces cerevisiae with 9 samples.

Results

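Glycolysis splits glucose into pyruvate, and in yeast growing on sugar pyruvate decarboxylase and alcohol dehydrogenase then turn pyruvate into ethanol. The genes for the lower part of this pathway are textbook examples of strong promoters, driven by the DNA binding protein Rap1 and the activator Gcr1. Chromatin at an average yeast gene has a promoter stretch that holds few nucleosomes, a first nucleosome (+1) at the transcription start site (TSS) and an array of further nucleosomes over the gene body.

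A list of 10 glycolytic and fermentation genes was looked up by systematic name in WT MNase-Seq tables of 2426 protein-coding genes, and 7 of them had a row. These were YGR192C (TDH3, glyceraldehyde-3-phosphate dehydrogenase), YGR254W (ENO1) and YHR174W (ENO2), both enolases, YLR044C (PDC1, pyruvate decarboxylase), YAL038W (CDC19, pyruvate kinase), YDR050C (TPI1, triose phosphate isomerase) and YKL152C (GPM1, phosphoglycerate mutase). PGK1, FBA1 and ADH1 had no row and are only named. The members were chosen by name and not by a measured value, though with earlier results of these data known. The tables hold no RNA measurement, so the high expression for which these genes are known was not checked here.

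The study compared WT and rtr1Δ yeast, the latter lacking the phosphatase Rtr1 that acts on RNA polymerase II, in 9 samples of ChIP-exo and MNase-Seq. Only the total histone MNase-Seq sample from WT cells (BY4741 background, grown to an OD600 of 0.8) had files that were analysed here. Micrococcal nuclease digests DNA that is not protected by a nucleosome, so that high read coverage marks DNA that nucleosomes cover in many cells. Values are coverage in RPM, scaled to the total number of reads, where 1 read is worth 0.0300 RPM and the total comes to 33313664 reads. With 1 sample there is no replicate error and no test was made. Each level is given with its rank among the genes, where rank 1 is the lowest, and a gene was called high or low when it lay over 1.5-fold from the median gene.

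The 7 genes are spread over 6 chromosomes of the R64 assembly, which is the assembly of sacCer3. The coding sequences lie at chrVII:882812-883810 on the minus strand for TDH3, chrVII:1000927-1002240 on the plus strand for ENO1, chrVIII:451327-452640 on the plus strand for ENO2 and chrXII:232390-234081 on the minus strand for PDC1. CDC19 lies at chrI:71786-73288 on the plus strand, TPI1 at chrIV:555726-556472 and GPM1 at chrXI:163642-164385, both on the minus strand. None of these coordinates gives the TSS that the tables are aligned on, so sequence positions are counted from the A of the start codon (+1) and coverage positions from the TSS.

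Several of these genes have a near-identical sister gene, and the sequences are shown first because the coverage inside the genes is compared with them further on. ENO1 and ENO2 have coding sequences of 1314 nucleotides with 68 differences (94.8% identity). TDH3 and TDH2 differ at 42 of 999 nucleotides (95.8% identity), and PDC1 and PDC5 at 216 of 1692 (87.2% identity). TDH2 and PDC5 had no row in the tables. The 60 nucleotides with the fewest differences and the 60 with the most were taken from the first 900 of each pair, the first such stretch where several tie, and differing bases are in capitals. Each pair has stretches of 60 nucleotides with 0 differences, longer than a read of 50 bases, the read length assumed here. The identical stretches of the enolases cover nucleotides 1 to 60, and their most different stretches cover 340 to 399 with 13 differences:
ENO1 1 to 60: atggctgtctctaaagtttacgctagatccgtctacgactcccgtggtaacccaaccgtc
ENO2 1 to 60: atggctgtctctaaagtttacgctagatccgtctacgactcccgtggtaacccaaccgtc
ENO1 340 to 399: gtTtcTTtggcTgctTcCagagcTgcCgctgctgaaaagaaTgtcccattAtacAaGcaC
ENO2 340 to 399: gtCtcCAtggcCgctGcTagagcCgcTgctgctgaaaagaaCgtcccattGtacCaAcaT

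For TDH3 and TDH2 the identical stretch covers nucleotides 355 to 414 and the most different one 64 to 123, with 12 differences. For PDC1 and PDC5 the identical stretch covers 346 to 405 and the most different one 559 to 618, with 19 differences:
TDH3 355 to 414: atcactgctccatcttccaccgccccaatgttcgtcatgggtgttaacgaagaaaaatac
TDH2 355 to 414: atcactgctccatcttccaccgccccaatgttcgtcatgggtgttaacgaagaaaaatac
TDH3 64 to 123: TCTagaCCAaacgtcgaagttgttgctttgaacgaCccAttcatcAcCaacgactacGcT
TDH2 64 to 123: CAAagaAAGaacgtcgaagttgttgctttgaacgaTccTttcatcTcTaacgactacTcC
PDC1 559 to 618: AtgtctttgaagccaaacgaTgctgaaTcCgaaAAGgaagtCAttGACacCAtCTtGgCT
PDC5 559 to 618: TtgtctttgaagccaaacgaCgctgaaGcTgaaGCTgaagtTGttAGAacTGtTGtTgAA

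The stretch just upstream of the TSS, where the median gene is emptiest, held more coverage at all 7 glycolytic genes than at the median gene. This depletion level, the mean from -130 to -50 nucleotides, was 4.38 RPM at the median gene. It was 8.60 RPM at TPI1 (rank 2357 of 2426), 8.34 RPM at PDC1 (rank 2337), 7.62 RPM at TDH3 (rank 2266), 6.96 RPM at GPM1 (rank 2164) and 6.87 RPM at ENO1 (rank 2145). ENO2 at 5.41 RPM (rank 1696) and CDC19 at 5.34 RPM (rank 1672) were closer to the middle. The first 5 of these were over 1.5-fold above the median gene, as were 14.7% of all genes. The level at the median of the 7 genes was 1.59-fold that of the median gene.

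The +1 peak, the mean from 0 to 75 nucleotides, was below the median gene of 8.77 RPM at all 7 genes. ENO2 had 2.50 RPM (rank 15), TDH3 2.95 RPM (rank 22) and ENO1 3.28 RPM (rank 26), and these were the 3 members over 1.5-fold below the median gene, against 7.58% of all genes. CDC19 at 6.72 RPM (rank 371), PDC1 at 7.19 RPM (rank 511), GPM1 at 7.65 RPM (rank 696) and TPI1 at 7.76 RPM (rank 757) were lower than the median gene by less than that. The level of TPI1 is that of a peak placed further downstream, with 3.87 RPM at 0 nucleotides but 10.1 RPM at 50 and 10.3 RPM at 75, above the median gene at the same bins (8.87 and 8.39 RPM). The 3 genes with the lowest +1 level are those whose first coding bases have near copies elsewhere in the genome, as described further on.

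The step from the depletion to the +1 peak was thus small or inverted. The ratio of the +1 level to the depletion level was 2.00 at the median gene and ranged from 0.39 at TDH3 (rank 7 of 2421 genes with a ratio) to 1.26 at CDC19 (rank 452). It was 0.46 at ENO2, 0.48 at ENO1, 0.86 at PDC1, 0.90 at TPI1 and 1.10 at GPM1. All 7 ratios were over 1.5-fold below the median gene, against 22.2% of all genes. At 5 members (TDH3, ENO1, ENO2, PDC1 and TPI1) the +1 level was lower than the depletion level, which was so for 8.66% of all genes. In the +1 bins of TDH3, ENO1 and ENO2, 75%, 52.5% and 47.5% of reads had no near copy, as given below. In their depletion bins it was 100%. How far this lowered their ratios was not tested. The peak of TPI1 lay late in the +1 bins, as given above. The ratio was also low at the 3 members without near copies, CDC19, TPI1 and GPM1, with a median of 1.10.

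**Figure D1:**
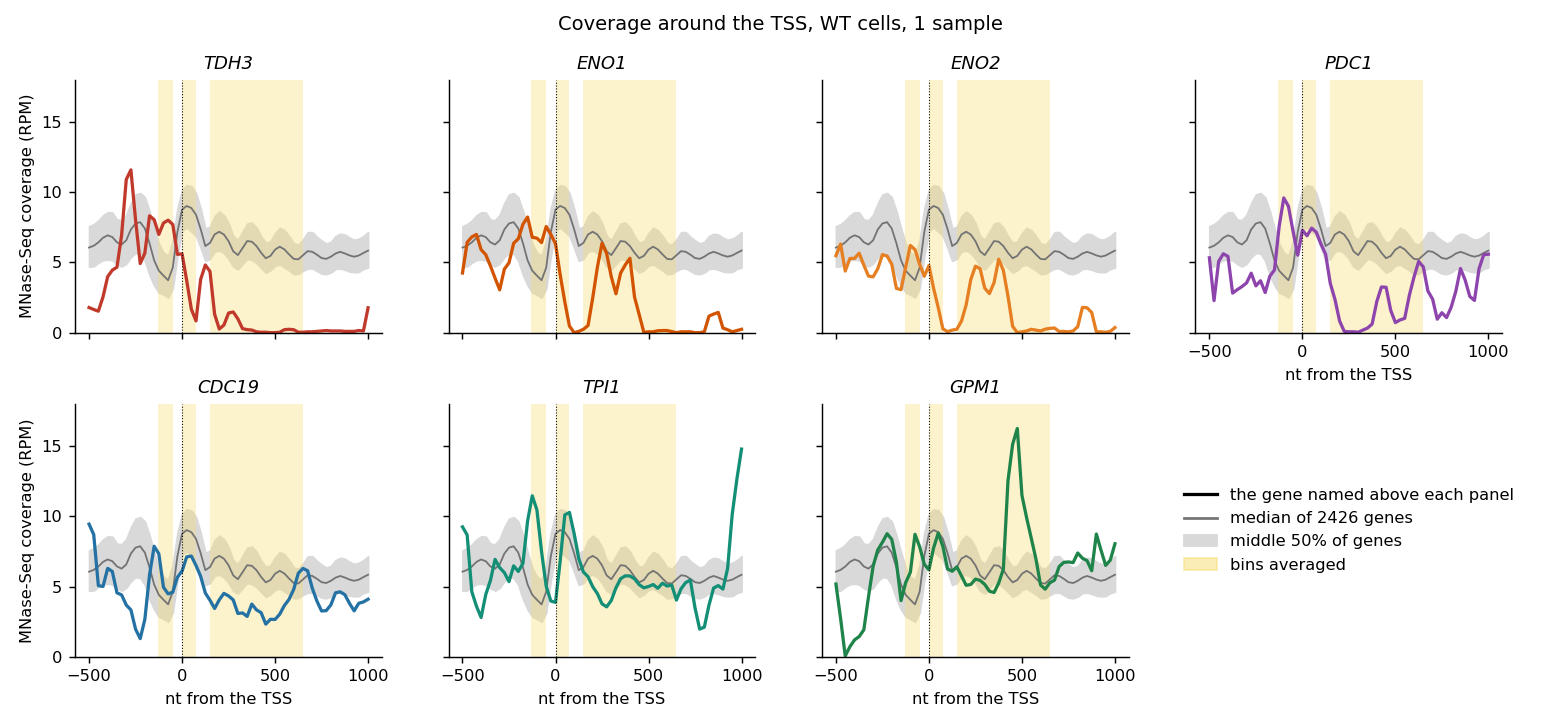
MNase-Seq coverage in RPM against the distance from the TSS in nucleotides, 1 panel for each of the 7 glycolytic genes. The coloured line is the gene, the grey line and band are the median and the middle 50% of 2426 genes, and yellow marks the bins averaged for the depletion, the +1 peak and the gene body. TDH3, ENO1 and ENO2 drop to near 0 inside the gene, and GPM1 has a peak of 16.2 RPM at 475 nucleotides.

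The lowest upstream bin lay further upstream than usual at most of these genes. By the overlays given below, it fell within the transcript of the neighbouring gene at GPM1. At TDH3 and TPI1 it fell shortly downstream of the end of such a transcript. Over all genes, the lowest bin between -500 and 0 nucleotides had a median position of -125. At 6 of the 7 members it lay upstream of -200 nucleotides, as it did at 31.4% of all genes. This measure was chosen after the profiles were seen. The lowest bin was at -475 nucleotides in PDC1 (2.28 RPM), -450 in TDH3 (1.53 RPM) and GPM1 (0.060 RPM), -400 in TPI1 (2.80 RPM), -300 in ENO1 (3.05 RPM) and -225 in CDC19 (1.29 RPM). ENO2 was the exception, with 3.06 RPM at -150 nucleotides. The value of GPM1 is worth 2.00 reads, under the floor of 3 reads (0.0901 RPM), and ranked 44 among the lowest upstream bins of all genes. The lowest bins of ENO2 (rank 1923), ENO1 (rank 1921), TPI1 (rank 1771) and PDC1 (rank 1375) were higher than that of the median gene, 2.07 RPM. Those of TDH3 (rank 743), CDC19 (rank 554) and GPM1 were lower, so the members lay on both sides of the median gene.

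Between the lowest upstream bin and the gene, coverage rose to peaks where the median gene is low. TPI1 reached 11.5 RPM at -125 nucleotides and PDC1 9.59 RPM at -100, against 4.41 and 4.06 RPM at the median gene. TDH3 stayed between 6.99 and 8.32 RPM from -175 to -50 nucleotides, after a peak of 11.6 RPM at -275. ENO1 had 8.23 RPM at -150 nucleotides and CDC19 7.87 RPM at the same place. GPM1 had 8.72 RPM at -75 nucleotides with a trough of 4.0 RPM at -150. Over the bins from -280 to -190 nucleotides, where the median gene carries the nucleosome upstream of its depletion (7.60 RPM), CDC19 had only 2.32 RPM (rank 62) and PDC1 3.53 RPM (rank 175), while GPM1 had 8.22 RPM and TDH3 7.55 RPM.

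At 3 members the upstream window reaches to or near the end of a neighbouring gene. PDX1 (YGR193C), which encodes a part of the pyruvate dehydrogenase complex, ends 698 nucleotides before the coding sequence of TDH3 on the same strand. DET1 (YDR051C) ends 583 nucleotides before TPI1 and NNR2 (YKL151C) 531 before GPM1, also in tandem. The profile around the transcript end site (TES) of each neighbour could be laid over the upstream window of the member. The best overlay put the TES of NNR2 405 nucleotides upstream of the TSS of GPM1 (r = 0.99 over 45 bins), that of DET1 500 upstream of TPI1 (r = 0.98 over 31 bins) and that of PDX1 545 upstream of TDH3 (r = 0.98 over 24 bins). The distance was chosen for the highest correlation, which raises r. The lowest bin of GPM1 thus lay near the 3′ end of NNR2, where the minimum level at its TES was 1.78 RPM. STU2 (YLR045C), upstream of PDC1 in tandem, and CYC3 (YAL039C), divergent from CDC19, end or start 955 and 2260 nucleotides away.

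The upstream sequences of the members were searched for motifs of their known regulators within 700 nucleotides before the start codon, on both strands. The Rap1 motif ACCCANACA was found at TDH3, ENO1, CDC19 and GPM1, 4 of the 7 genes, and in 4.83% of the 2424 genes that were found in the reference. Of the listed genes without a row, PGK1, FBA1 and ADH1 held it too. The Reb1 motif CGGGTAA was found only at TPI1 among the members, and in 14.7% of all genes. The short Gcr1 motif CTTCC was found at 6 of 7, all but TDH3, and in 77.3% of all genes. TATAAA was found at 6 of 7, all but GPM1, and in 68.2% of all genes. In the 100 nucleotides that start at -200 it was found at the same 6, and in 19.1% of all genes over the same stretch. That window was set after the positions were seen. Rap1 and Reb1 matches cannot share their ACCC core, since the base after it differs, and a match is a description and not a bound site.

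The 60 nucleotides around each Rap1 and Reb1 match are shown on the strand of the gene with the match in capitals, because these are the motifs that fewer than 15% of all genes held. They are from chrVII:884287-884346, chrVII:1000435-1000494, chrI:71109-71168, chrXI:164745-164804 and chrIV:556837-556896:
TDH3 Rap1: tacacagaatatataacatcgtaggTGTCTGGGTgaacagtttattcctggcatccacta
ENO1 Rap1: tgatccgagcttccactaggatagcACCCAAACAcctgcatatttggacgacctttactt
CDC19 Rap1: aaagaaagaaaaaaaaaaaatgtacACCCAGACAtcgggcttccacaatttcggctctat
GPM1 Rap1: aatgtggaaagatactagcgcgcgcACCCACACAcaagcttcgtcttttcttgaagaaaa
TPI1 Reb1: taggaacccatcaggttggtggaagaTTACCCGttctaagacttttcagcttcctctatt

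The matches start at -511 nucleotides from the start codon in TDH3, -467 in ENO1, -652 in CDC19, -394 in GPM1 and -398 in TPI1. For TDH3 and ENO1 the distance from the TSS to the start codon could be estimated from the coverage, as given below, and the match then fell at -462 and -432 nucleotides from the TSS. The nearest bin of TDH3 was its lowest upstream bin, 1.53 RPM at -450 nucleotides. The nearest bin of ENO1 held 6.99 RPM and was not a low point. With a near copy defined by at most 5 mismatches, as below, the 2 genes with a Rap1 match and an estimated TSS thus differed in the coverage at the match. With a limit of 8 the estimated distance of TDH3 was 170 nucleotides in place of 45. Its match then no longer fell at its lowest upstream bin.

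The TATAAA matches of the members with the highest coverage in the depletion bins are shown in the same way, from chrVII:883917-883976, chrXII:234190-234249 and chrIV:556610-556669. The match starts at -139 nucleotides from the start codon in TDH3, -141 in PDC1 and -170 in TPI1:
TDH3 TATA: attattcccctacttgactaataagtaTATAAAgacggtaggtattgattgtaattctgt
PDC1 TATA: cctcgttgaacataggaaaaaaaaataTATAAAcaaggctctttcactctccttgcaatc
TPI1 TATA: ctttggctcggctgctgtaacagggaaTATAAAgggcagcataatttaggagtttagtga

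With the estimated TSS the match of TDH3 fell at -91 nucleotides, where the nearest bin held 7.80 RPM, and that of PDC1 at -118, where it held 7.55 RPM. At ENO1 the match fell at -113 nucleotides with 6.79 RPM. These 3 sense matches thus lay in bins with coverage above the median gene. An antisense match of TDH3 at -26 nucleotides lay in a bin of 5.57 RPM, below the median gene there (7.17 RPM). At ENO2 the sense match fell at -163 nucleotides, where the nearest bin held 3.15 RPM, below the median gene there (6.36 RPM). Its antisense match fell at -111 nucleotides, where the nearest bin held 6.21 RPM, above the median gene there (4.06 RPM). All these places hold for the limit of 5 mismatches used below and shift with other limits.

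Inside the genes the members separated. The gene body level, the mean from 150 to 650 nucleotides, was 6.12 RPM at the median gene. It was 0.57 RPM at TDH3 (rank 21), 1.78 RPM at PDC1 (rank 36), 1.88 RPM at ENO2 (rank 39), 2.16 RPM at ENO1 (rank 46) and 3.77 RPM at CDC19 (rank 122). These 5 were over 1.5-fold below the median gene, against 6.84% of all genes. TPI1 with 4.98 RPM (rank 462) was lower than the median gene by less than that. GPM1 with 7.39 RPM (rank 2062) was the only member above it. Its bins from 175 to 375 nucleotides were below the median gene, and those from 425 to 575 held a peak of up to 16.2 RPM.

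**Figure D2:**
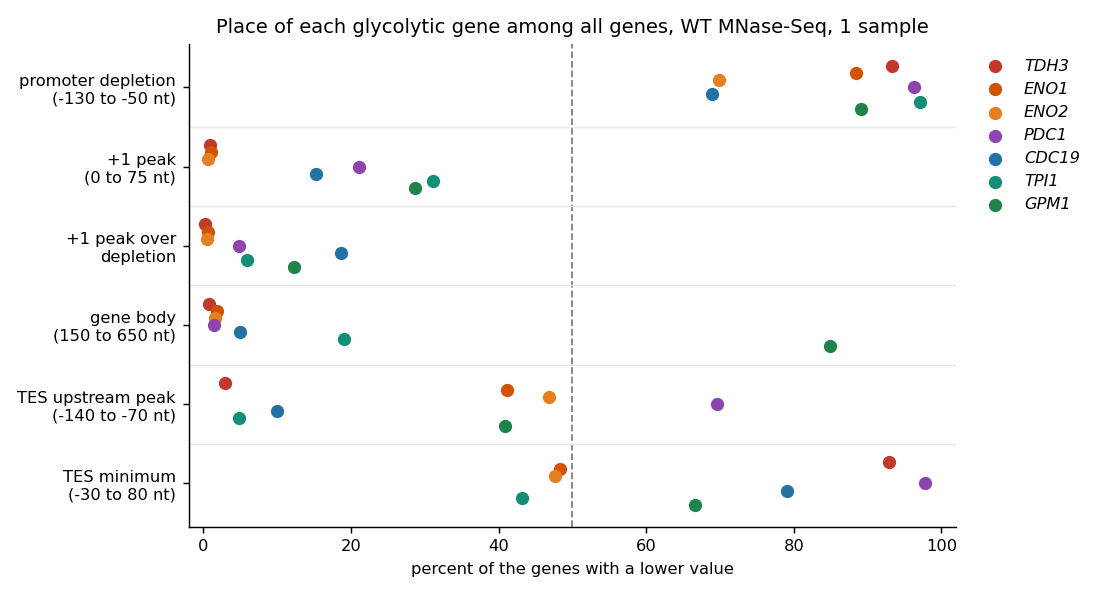
Place of each of the 7 glycolytic genes among all genes, as the percent of genes with a lower value, for the depletion, the +1 peak, their ratio, the gene body and the 2 levels at the TES. The dashed line is the median gene. All 7 points lie right of it for the depletion and left of it for the +1 peak and the ratio, and GPM1 is the only one right of it for the gene body.

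The 4 lowest gene bodies belong to the 4 members with near copies elsewhere in the genome. Each stretch of 50 bases in the first 1000 coding nucleotides was compared with the rest of the genome, and one with at most 5 mismatches to another place was counted as a near copy. The share with a near copy was 85.8% in TDH3, 81.8% in ENO1, 81.8% in ENO2 and 68.7% in PDC1. It was 0 in CDC19, TPI1 and GPM1. Upstream of the start codon all 7 genes had 0% near copies, so the depletion levels rest on sequence found in 1 place.

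Coverage within these 4 genes rose and fell with the share of reads that have no near copy. That share was computed per bin with reads counted over 75 bases, and the distance between TSS and start codon was set to the value from -50 to 250 nucleotides that gave the highest correlation. The correlation over the bins from the TSS on was 0.93 in TDH3 (39 bins, start codon 45 nucleotides after the TSS), 0.88 in ENO1 (41 bins, 30 nucleotides), 0.89 in ENO2 (41 bins, 25 nucleotides) and 0.94 in PDC1 (41 bins, 20 nucleotides). Bins of 1 gene share reads and the choice of the distance raises r, so these values are a description. Across the distances tried the lowest r was 0.54, 0.10, 0.049 and 0.11 in the same order. With a limit of 2 mismatches the highest r was 0.76, 0.85, 0.87 and 0.69, and with 8 it was 0.84, 0.74, 0.73 and 0.74. The distance at the highest r changed with the limit. It was 35, 40, 40 and -25 nucleotides with 2 mismatches and 170, 5, 5 and 40 nucleotides with 8, in the same order. Positions counted from the estimated TSS hold for the limit of 5 mismatches only.

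**Figure D3:**
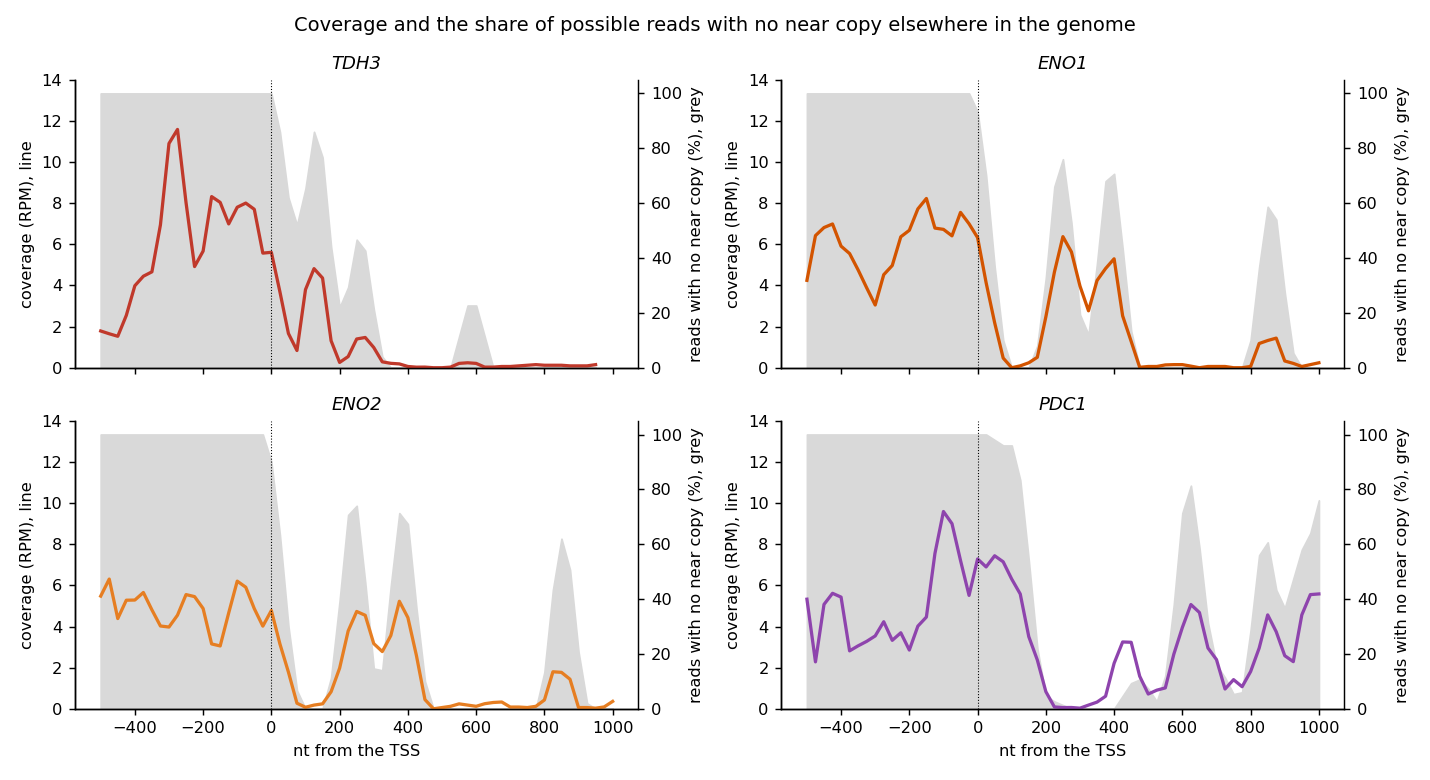
MNase-Seq coverage in RPM (coloured line, left axis) and the percent of possible reads with no copy of at most 5 mismatches elsewhere (grey, right axis) against the distance from the TSS in nucleotides, for TDH3, ENO1, ENO2 and PDC1. Upstream of the TSS the grey area is at 100%. Inside the genes the coverage peaks stand over the grey peaks, with an exception in PDC1 at 425 nucleotides (3.25 RPM).

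In the bins where under 10% of reads had no near copy, coverage averaged 0.096 RPM in TDH3 (22 bins), 0.12 RPM in ENO1 (23 bins), 0.17 RPM in ENO2 (22 bins) and 1.00 RPM in PDC1 (15 bins). In the bins where over 80% had none, it averaged 4.71 RPM in TDH3 (3 bins), 6.53 RPM in PDC1 (7 bins) and was 6.33 RPM and 4.78 RPM in the single such bin of ENO1 and of ENO2. In TDH3 12 of the 37 bins from 100 to 1000 nucleotides held under 3 reads, in ENO1 13, in ENO2 10 and in PDC1 3. The enolases fell to near 0 together. At 100 nucleotides ENO1 held less than 1 read and ENO2 0.075 RPM, under the floor of 3 reads, and they rose to 6.37 and 4.73 RPM at 250 nucleotides. The identical stretch of TDH3 shown above lay nearest the bin at 425 nucleotides with 0.027 RPM, and its most different stretch nearest the bin at 150 with 4.36 RPM. The most different stretches of ENO1 and ENO2 lay nearest the bin at 400 nucleotides, with 5.30 and 4.43 RPM. The identical stretch of PDC1 went the other way, since the bin nearest to it, at 400 nucleotides, held 2.21 RPM although 0% of its reads had no near copy.

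Near copies also reached into the +1 bins of 3 members. The share of reads with no near copy over the bins from 0 to 75 nucleotides was 75% in TDH3, 52.5% in ENO1 and 47.5% in ENO2, the 3 genes with a low +1 peak, and 98.5% in PDC1. Over the gene body bins it was 16.9% in TDH3, 23.8% in ENO1, 23.8% in ENO2 and 18.1% in PDC1. How reads with more than 1 possible place were treated is not given in the sources used here.

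Over all genes, 166 had a low gene body, and 75 of these had near copies in over 20% of their coding sequence. Only 151 of the 2424 genes found in the reference, 6.23%, had as many. The median gene body was 4.12 RPM over those 151 genes and 6.19 RPM over the 2273 others. Among the 3 members without near copies only CDC19 had a low gene body, against 90 of those 2273 genes. The coverage of CDC19 was between 2.33 and 4.51 RPM from 175 to 575 nucleotides and 6.29 RPM at 650.

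**Figure D4:**
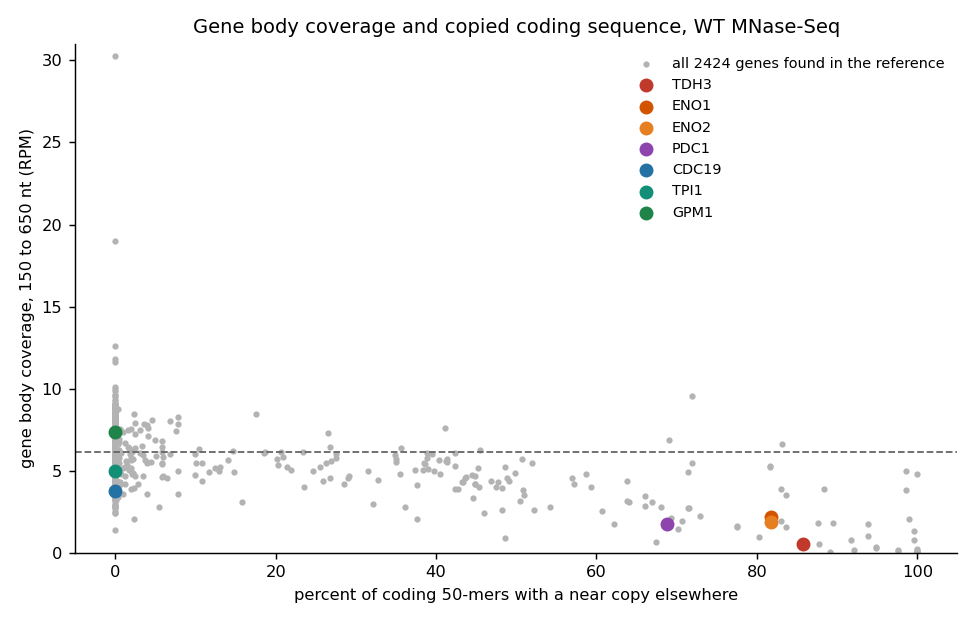
Gene body coverage in RPM against the percent of coding stretches of 50 bases with a near copy elsewhere, for 2424 genes (grey) and the 7 glycolytic genes (colours). The dashed line is the median gene body. TDH3, ENO1, ENO2 and PDC1 lie at the low end on the right, and CDC19, TPI1 and GPM1 lie at 0 on the horizontal axis.

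The profiles of the members without near copies differed from one another. GPM1 held a single tall peak of 16.2 RPM at 475 nucleotides, with 12.5 RPM at 425 and 11.5 RPM at 500. Its highest gene body bin ranked 2408 of 2426, and the median gene reached 8.81 RPM. TPI1 was flat, between 3.55 and 6.03 RPM from 150 to 650 nucleotides, and its highest gene body bin ranked 147. It fell to 1.97 RPM at 775 nucleotides and rose to 14.8 RPM at 1000. The TES profile of TPI1 matched that part of its TSS profile with the TES 862 nucleotides after the TSS (r = 0.99 over 51 bins), so the peak lay downstream of the TES. The same overlay was poorer at TDH3 (r = 0.76 over 25 bins) and GPM1 (r = 0.71 over 44 bins), and their distance from TSS to TES is not used. Over the whole TSS window, ENO1 and ENO2 had the most similar profiles of the 21 pairs of members (r = 0.92 over 61 bins), and CDC19 and GPM1 the least (r = -0.45). No member followed the median profile of all genes closely. The correlation with it was between -0.089 (GPM1) and 0.19 (ENO2), while the median gene had 0.47.

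At the 3′ end the members were as mixed. The level from -140 to -70 nucleotides of the TES, where the last nucleosome of the median gene gives 7.42 RPM, was 2.48 RPM at TDH3 (rank 73), 3.12 RPM at TPI1 (rank 117) and 4.05 RPM at CDC19 (rank 243). These 3 were over 1.5-fold below the median gene, against 16.4% of all genes. GPM1, ENO1 and ENO2 had 6.90, 6.92 and 7.26 RPM, and PDC1 had 8.56 RPM. TDH3 rose from 0.15 RPM at -200 nucleotides to 11.2 RPM at -13.3. In its TSS window the bins from 800 to 950 nucleotides, where 0% of reads had no near copy, were as low, at 0.09 to 0.15 RPM, and the part of near copies in its low level before the TES was not tested.

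The stretch from -30 to 80 nucleotides of the TES holds the lowest bin of the median profile, 5.77 RPM at 60 nucleotides. The mean level over that stretch, called the TES minimum, was 6.04 RPM at the median gene. It was high at PDC1 with 11.3 RPM (rank 2372) and at TDH3 with 9.92 RPM (rank 2255). These 2 were over 1.5-fold above the median gene, against 12.6% of all genes. CDC19 had 8.10 RPM (rank 1919), GPM1 7.16 RPM, ENO1 5.88 RPM, ENO2 5.84 RPM and TPI1 5.55 RPM. The highest value of any member at the TES was 16.3 RPM, at 140 nucleotides downstream of the TES of TPI1.

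**Figure D5:**
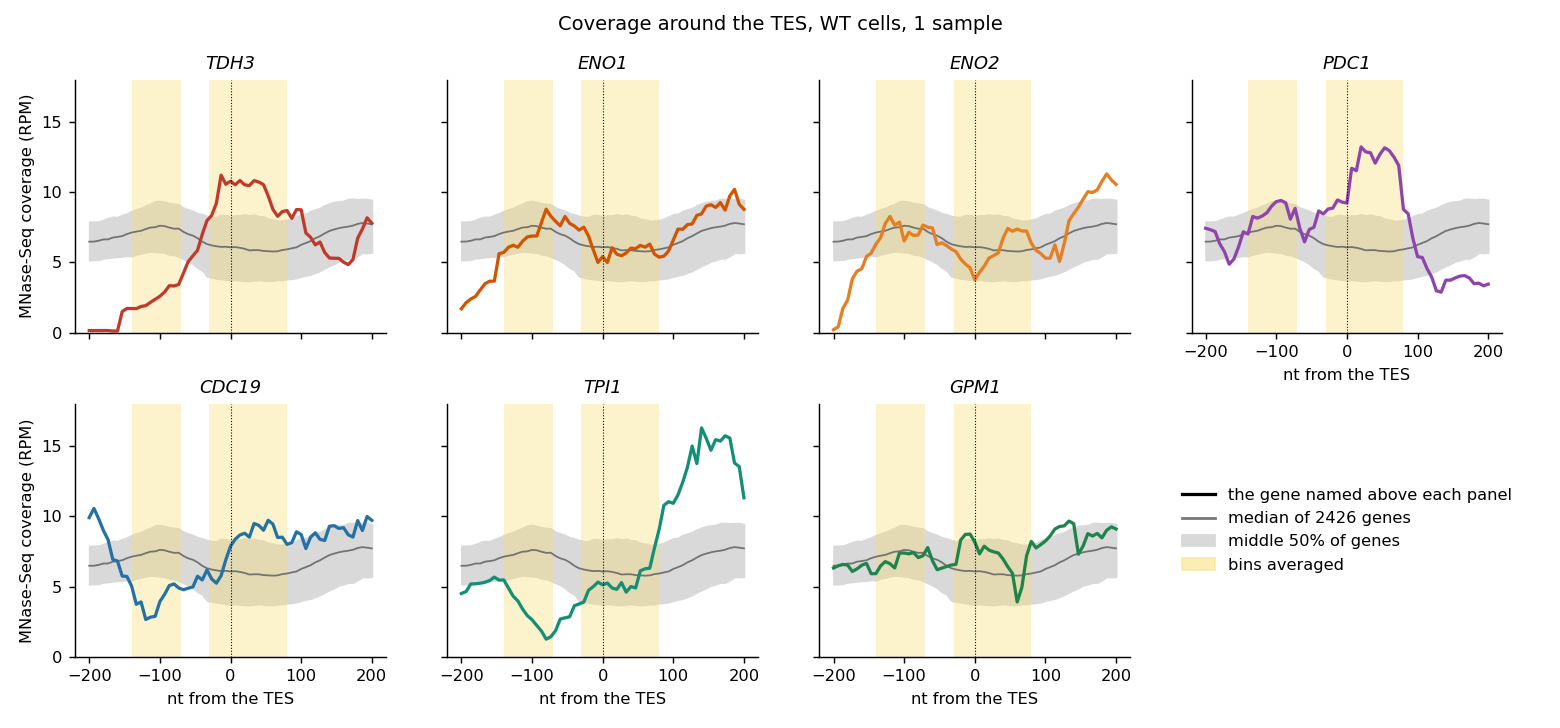
MNase-Seq coverage in RPM against the distance from the TES in nucleotides for the 7 glycolytic genes. The coloured line is the gene, the grey line and band are the median and the middle 50% of 2426 genes, and yellow marks the bins averaged. PDC1 and TDH3 are above the band at the TES, and TPI1 rises to 16.3 RPM downstream of it.

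Of 32 further genes of glucose metabolism and its regulation, 16 had a row. Their median depletion level was 6.82 RPM and 9 of the 16 were high, against 14.7% of all genes. Their median gene body was 5.01 RPM and 1 of 16 was low, against 6.84% of all genes. A low ratio of +1 to depletion was found in 10 of 16, against 22.2% of all genes. The 3 genes of upper glycolysis with a row had a lower depletion level than any of the 7 members. The depletion level was 3.90 RPM at HXK2 (hexokinase), 4.79 RPM at PFK1 and 3.55 RPM at PFK2 (both phosphofructokinase), and none of the 3 had a low ratio. Their +1 peaks were 6.48, 9.29 and 8.34 RPM in the same order. Their gene bodies of 4.71, 5.23 and 4.59 RPM were below the median gene, as at most members. The glycerol branch had 3 of 4 genes with a high depletion level, GPD1 (8.71 RPM) and the glycerol-3-phosphatases GPP1 (6.77 RPM) and GPP2 (9.97 RPM), and the same 3 had a low ratio. GPD2 had 4.47 RPM.

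TDH1, the sister of TDH3 with a row, combined a high depletion level of 9.24 RPM with a +1 peak of 11.3 RPM (rank 2190). Its gene body was at 2.52 RPM (rank 51), and 60.7% of its coding stretches had near copies. It was the only low gene body among the 16. Of the alcohol dehydrogenases, ADH5 had a depletion level of 9.05 RPM, ADH4 5.94 RPM and ADH3 5.72 RPM. FBP1, the gluconeogenic fructose-1,6-bisphosphatase, had 6.87 RPM in the depletion and 6.87 RPM at +1. Among the regulators, the depletion level was 7.64 RPM at REB1, 7.24 RPM at GCR1, 6.93 RPM at RAP1 and 3.70 RPM at PDC2.

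Ribosomal protein genes are another group known for strong promoters. The 108 of them with a row had a median depletion level of 4.94 RPM, a median +1 peak of 8.85 RPM and a median gene body of 4.82 RPM. A high depletion level was found in 19 of 108, where all genes had 14.7%, and a low ratio in 26 of 108, where all genes had 22.2%, so that both shares were near those of all genes. The 7 glycolytic genes had 5 and 7. Near copies covered over 20% of the coding sequence in 89 of the 108, and 31 had a low gene body, against 6.84% of all genes. In the 19 without, the median gene body was 5.52 RPM and 0 were low, against 90 of the 2273 genes without. The difference between the groups was not tested.

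The 3 other genes whose profile around the TSS was most like the median profile of the members were IMA1 (YGR287C, r = 0.81), LYS20 (YDL182W, r = 0.80) and SSA1 (YAL005C, r = 0.76), each over 61 bins. IMA1 encodes an isomaltase, LYS20 a homocitrate synthase of lysine synthesis and SSA1 a cytosolic Hsp70 chaperone. Their gene bodies were at 0.65, 0.15 and 1.00 RPM and their depletion levels at 9.37, 8.08 and 9.95 RPM. Near copies made up 67.4%, 92.1% and 93.8% of their coding stretches.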

How the data were processed

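The MNase-Seq sample of WT yeast was used, 1 of 9 samples, and the others were not analysed here. The authors sequenced on SOLiD, used bfast to place the reads on sacCer3, and let ngs.plot derive a profile for each gene. What they deposited is this coverage signal, in RPM, as 101 columns per gene. The methods name 2 biological replicates per genotype for the ngs.plot profiles, and the tables hold 1 value per gene and bin. Whether the MNase-Seq tables pool such replicates, how far reads were extended and which annotation was used are not given in the sources used here. Columns beyond the window edges (20 at either end) only repeat a value and were dropped, which leaves 61 bins from -500 to 1000 nucleotides (TSS) and from -200 to 200 (TES). All edge values are whole multiples of 0.0300 RPM, the worth of 1 read. A depletion level of a member rests on 178 to 287 reads over each base, and counting error is the only error that these files show.

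Gene positions, sequences and motifs come from the RefSeq R64 reference. Near copies were found from shared 16-mers. Ratios were not formed where the depletion was under 0.1 RPM. The text names the listed genes and pathway genes with a row, the upstream neighbours with a row and the 3 most similar profiles. Members and lists were chosen with earlier results of these data known. Alternatives changed the bins, the scale of each gene, the genes kept and the fold. The level and near-copy steps were tested on simulated data. Python 3.11.15, numpy 2.4.6 and pandas 2.3.3 were used.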

Additional observations from a re-analysis of the deposited data

How the results depend on the processing

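Of 24 alternative values, 14 stayed within the counting interval of the main value or, for counts, within 1.5 times of it. Levels are the median of the members over the median gene, and counts are members. Scaling every gene to its mean over the TSS window moved the depletion level from 1.59 to 3.05 and the gene body from 0.35 to 0.77, since empty gene bodies lower that mean. With the highest bin over the lowest bin the ratio of +1 to depletion moved from 0.43 to 0.53, and with the highest and lowest bin at the TES the minimum moved from 1.19 to 1.72. With genes of at least 99% unique 50-mers, the gene body became 0.81 (3 members), the ratio 0.50 (4 members) and the members with a low gene body 1 of 3 in place of 5 of 7. Of the 2322 genes kept for the gene body, 4.35% were low, in place of 6.84%. Keeping genes with under 20% of the coding sequence copied, chosen after seeing the data, left 3 members with a gene body of 0.80, a ratio of 0.54 and 1 low gene body. Of the 2273 genes kept there, 4.22% had a low gene body. No direction changed. With 1 sample no replicate could be left out. No paired analysis was possible because there is 1 sample and no test.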
